A study of Mus musculus with 11 samples.

Results

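Wnt proteins are secreted, lipid-modified ligands that bind Frizzled receptors, and they carry signals between the epithelium and mesenchyme of the developing lung. The 10 ligands described here were the rows of the count tables for Wnt2, Wnt2b, Wnt4, Wnt5a, Wnt5b, Wnt7b, Wnt9a, Wnt10a, Wnt11 and Wnt16, taken by symbol from 24062 listed genes. They are 10 of the 19 Wnt genes of the mouse. Canonical ligands such as Wnt2 and Wnt2b stabilize β-catenin through Frizzled and Lrp co-receptors, and non-canonical ligands such as Wnt5a and Wnt11 act through Ror receptors and the planar cell polarity machinery. In the fetal lung, Wnt2 and Wnt2b of the mesenchyme are needed for specification of the lung, Wnt5a for distal airway shape, and Wnt7b is a product of the airway epithelium.

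Transcripts were counted in 11 RNA-seq libraries of fetal lung mesenchymal cells from embryonic day 15 (E15) mice. There were 4 wild-type (WT, Sp3+/+), 4 Sp3+/- and 3 Sp3-/- libraries, the genotypes differing at Sp3, which encodes a transcription factor that binds GC boxes. No treatment or time distinguished them, and every library came from cells enriched by adhesion to plastic and passaged in culture. Whole lung, epithelium and freshly isolated cells were not sampled, and a Sp3-/- library carries the null genotype in every cell type it holds. The labels do not say which libraries came from separate animals, so p-values measure the spread between libraries. Library titles also carry a first number (468, 685 or 697) and in some a suffix (2 or 3) that the sources used here do not explain. All 3 Sp3-/- libraries, WT 468-4 and Sp3+/- 697-4 have no suffix, and 3 of the 4 WT libraries have suffix 3. Genotype and suffix therefore cannot be fully told apart.

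Between 9849111 and 59297495 reads per library were counted on genes, and Sp3-/- 697-5 was the shallowest. Sp3 itself measured 5.94 to 6.75 log2 CPM in WT, 5.71 to 6.15 in Sp3+/- and 3.89 to 4.23 in Sp3-/- libraries. Here log2 CPM is the log2 of the count scaled to library size by TMM (CPM), with a prior count of 2. The mesenchymal genes Vim and Col1a1 were at 2031 CPM or more and 1571 CPM or more in every library. The epithelial gene Epcam was at 0 to 0.28 CPM in WT and 0.596 to 1.2 CPM in Sp3-/- libraries. Some other listed epithelial genes had more, such as Krt18 at 12.28 to 25.56 in WT and 37.39 to 103 CPM in Sp3-/- libraries. Others were not higher in Sp3-/- libraries. Sftpc was at 0 to 4.559 in WT and 0.02206 to 0.1024 CPM in Sp3-/- libraries, and Nkx2-1 at 0 to 1.174 and 0.06617 to 0.1391. Sox9 was at 6.333 to 13.19 and 4.784 to 9.322 CPM. Krt19 was listed among both the epithelial and the mesothelial markers. Of the listed mesenchymal genes, Foxf1 was at 27.43 to 58.59 in WT and 6.953 to 25.82 CPM in Sp3-/- libraries. Tcf21 was at 1.967 to 11.69 and 5.122 to 15.41 CPM. Markers of other cell types moved with genotype, and some with the suffix too. Summed CPM of 12 macrophage markers was 705 to 3813 in WT, 426.9 to 3545 in Sp3+/- and 3609 to 13070 in Sp3-/- libraries. The summed CPM of 7 mesothelial markers was 742.6 to 1731 in WT, 1430 to 2520 in Sp3+/- and 2161 to 5956 in Sp3-/- libraries. For 8 smooth muscle markers it was 11790 to 25600, 14650 to 21180 and 4124 to 5003. Ranges for 10 epithelial markers were 30.92 to 62.31 in WT, 38.7 to 62.76 in Sp3+/- and 63.31 to 182 in Sp3-/- libraries, those for 8 endothelial markers were 41.25 to 120.4, 51.55 to 95.89 and 122.3 to 143.4, and those for 11 lung mesenchyme markers were 13140 to 22200, 14980 to 22120 and 7269 to 18920. Among the Sp3-carrying libraries, the pair without a suffix had 3813 and 3545 CPM of macrophage markers and the rest 426.9 to 1003. Between WT and Sp3-/- cells, 6 of 12 macrophage and 4 of 7 mesothelial markers tested were called higher. So were 3 of 8 epithelial and 2 of 8 endothelial markers. Called lower were 7 of 8 smooth muscle and 5 of 11 lung mesenchyme markers. With the suffix as a covariate these counts were 0, 1, 1, 0, 7 and 2, and 1 lung mesenchyme marker was called higher. Over all 14025 genes tested, 8.76% were called higher and 9.77% lower. With the covariate, in a fit of all 11 libraries, 1329 of 14130 genes were called, and 3977 in such a fit without it. In these mixed cultures, fewer cells of a type and less RNA per cell cannot be told apart.

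Because Sp3 binds GC boxes, the promoter sequences of the ligands that changed in Sp3-/- cells are shown first. Of the 10 ligands, 7 had a RefSeq promoter entry on GRCm38.p6, each 250 bases before to 50 after a transcript start. Wnt5b had 3 such windows and Wnt11 had 2, giving 10 windows in all. Wnt5a, Wnt7b and Wnt10a had none. Of the 5 ligands called changed between WT and Sp3-/- cells, 4 had an entry, and they are printed 5′ to 3′ on the strand of the gene, with the GC box core in capitals. The core searched was GGGCGG on either strand, so that CCGCCC also counts, and overlapping matches were each counted. For Wnt2 and Wnt4 only 30 bases around a core are given. The reason is that 30 bases at an end of the 250 before the start occur in annotated GENCODE transcripts, 7 for Wnt2 and 12 for Wnt4. Part of these promoter windows is therefore transcribed sequence as well. Whether the printed bases themselves are transcribed was not checked.
Wnt16, GRCm38.p6 chr6:22287977-22288177, plus strand, with no core: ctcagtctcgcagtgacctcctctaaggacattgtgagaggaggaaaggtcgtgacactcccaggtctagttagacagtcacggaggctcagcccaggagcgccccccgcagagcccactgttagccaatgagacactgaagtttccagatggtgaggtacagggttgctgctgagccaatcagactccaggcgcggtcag
Wnt11, GRCm38.p6 chr7:98834862-98835083, plus strand, with 4 cores: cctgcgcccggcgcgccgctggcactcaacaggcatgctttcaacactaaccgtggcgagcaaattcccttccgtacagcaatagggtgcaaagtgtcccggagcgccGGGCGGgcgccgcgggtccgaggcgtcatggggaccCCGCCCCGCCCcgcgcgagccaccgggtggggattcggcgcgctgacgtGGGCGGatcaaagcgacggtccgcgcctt
Wnt4, GRCm38.p6 chr4:137277437-137277466, plus strand, with 3 cores: ccggcCCGCCCcgccggCCGCCCGCCCgcc
Wnt2, GRCm38.p6 chr6:18030615-18030644, minus strand, with 1 core: ccccctacgcccCCGCCCggcgtaggcgcc

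The full window of Wnt4 held 8 cores, the most of any window of the ligands, with a GC content of 84.3%. Wnt9a held 5, Wnt2b and the first window of Wnt11 held 4 each, and Wnt2 held 2. The Wnt5b windows held 3, 0 and 2, and the second Wnt11 window held 1. Wnt16 held none, at a GC content of 58.0% against a median of 52.7% over all windows. With the longer box GGGGCGGGG, which contains the core, the counts were 3, 0 and 1 for Wnt5b, 2 for Wnt2b, 2 and 0 for Wnt11, 1 each for Wnt2 and Wnt9a, and 0 for Wnt4 and Wnt16. The core occurred in 8 of the 10 ligand windows and in 35.7% of 32851 promoter windows of the same length, and the longer box in 6 of 10 and in 11.4%. Windows rich in cores belonged to ligands that were higher in Sp3-/- cells (Wnt4, Wnt11) and to others for which no change was called against WT (Wnt2b, Wnt9a). Absence of these letters from the Wnt16 window says nothing about binding of Sp3 elsewhere.

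The ligands differed widely in abundance in WT cells. Levels between genes are given as CPM per kilobase of exon, using exon lengths from the GENCODE vM39 annotation (mean ± SD, n = 4). Wnt5a, a non-canonical ligand, stood at 24.01 ± 4.34 and Wnt9a at 10.9 ± 0.70, and the libraries of neither overlapped with those of another member. Wnt11 followed at 2.47 ± 0.39 and Wnt2b at 1.63 ± 0.50, and their libraries overlapped. Wnt16 (0.89 ± 0.15), Wnt4 (0.70 ± 0.24), Wnt5b (0.49 ± 0.20) and Wnt2 (0.22 ± 0.11) came next, each overlapping with its neighbour in this order. Wnt10a (0.075 ± 0.063) and Wnt7b (0.031 ± 0.012) were lowest. This order depends on the exon lengths used, and Wnt2 had the longest of the members, 12563 bases. In CPM alone Wnt2 was at 1.461 to 4.694 in WT, Wnt5b at 1.574 to 4.283 and Wnt4 at 1.908 to 4.528.

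Wnt7b and Wnt10a were near the limit of detection. Wnt7b had 7, 1, 4 and 7 reads in WT, 7, 7, 6 and 14 in Sp3+/- and 14, 3 and 2 in Sp3-/- libraries. Wnt10a had 10, 10, 6 and 2 reads in WT, 7, 18, 9 and 7 in Sp3+/- and 10, 14 and 3 in Sp3-/- libraries. Neither exceeded 1 CPM in any library, so they were not tested, and a difference between genotypes was not detectable at this depth. The remaining 8 ligands passed the filter of more than 1 CPM in at least 1 library.

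**Figure D1:**
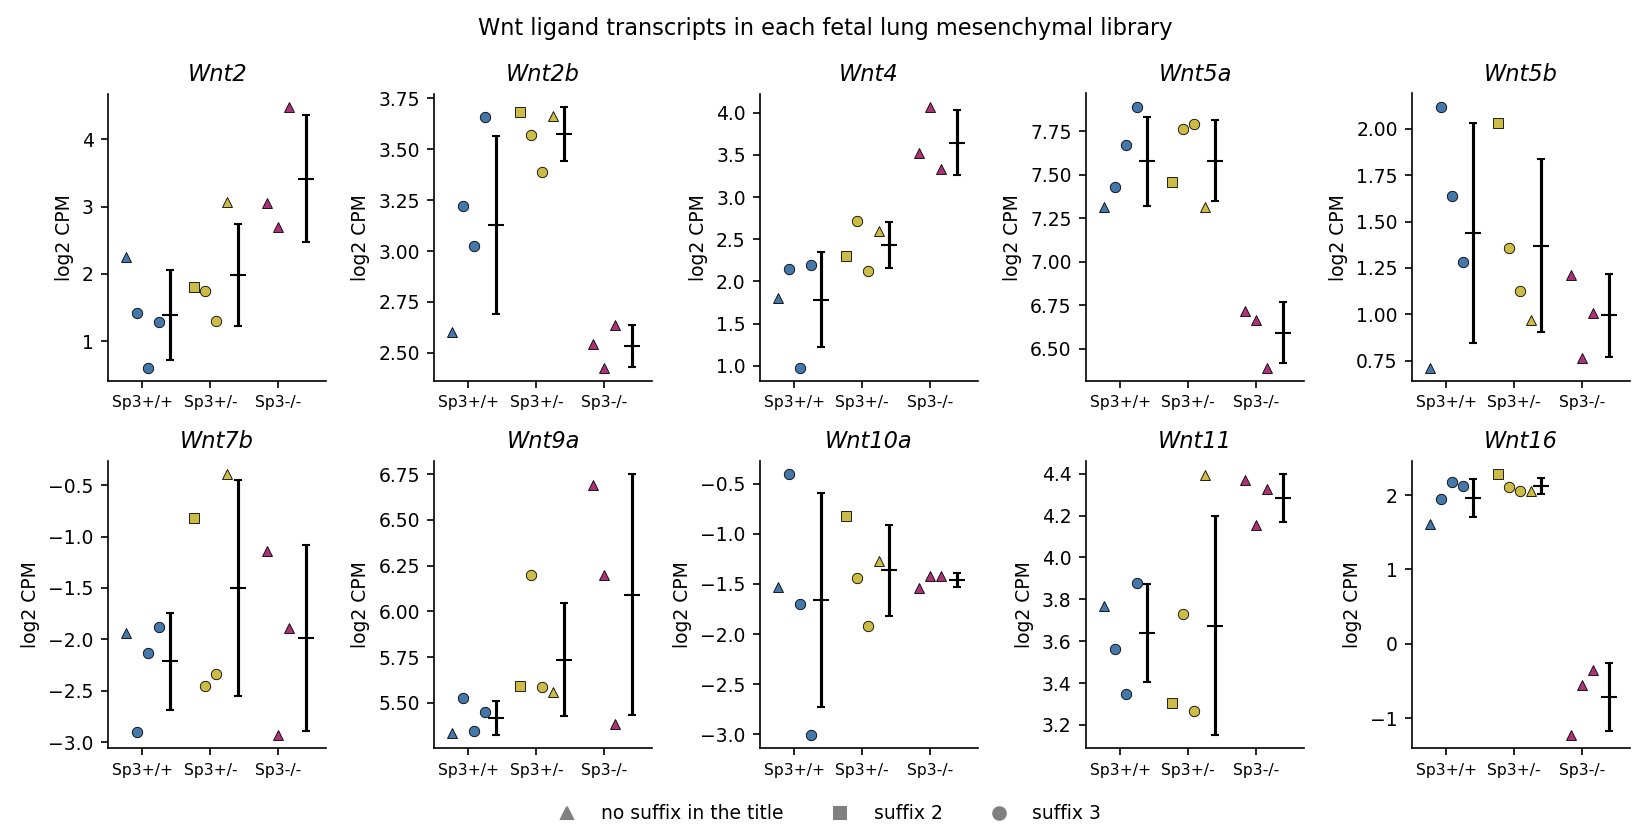
Level of each ligand (log2 CPM, vertical axis, a separate scale in each panel) in the 4 WT, 4 Sp3+/- and 3 Sp3-/- libraries; each point is a library, its shape gives the suffix in the title, and the bar at the right of each group is the mean ± SD. The 3 Sp3-/- libraries lie apart from WT for Wnt2, Wnt4, Wnt5a, Wnt11 and Wnt16, and among the libraries the 3 Sp3-/- values of Wnt16 stand below 0. The share of all tested genes that lie apart in this way was not counted.

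In Sp3-/- cells, 3 ligands were higher than in WT (Wnt2, Wnt4 and Wnt11) and 2 were lower (Wnt5a and Wnt16) by the quasi-likelihood test of edgeR, with a threshold of 0.05 on the p adjusted after Benjamini and Hochberg. Wnt2b, Wnt5b and Wnt9a did not pass. Among all 14025 genes tested, 18.5% were called, 8.76% as higher and 9.77% as lower. An unadjusted p below 0.05 (edgeR) was found for 37.6% of them. The share of all genes whose WT and Sp3-/- libraries do not overlap was not counted, so such statements on single ligands below are descriptions only. The median log2 fold change of the 8 ligands was 0.06, against -0.0032 over all genes. Of all called genes 47.3% were higher in Sp3-/- cells, or 37.0% when the upper quartile replaced TMM scaling. Each of the 5 ligands kept its direction and call with library size alone and with upper quartile scaling.

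Wnt16 changed most. It is a ligand best known from bone and joint tissue. It measured 1.61, 1.95, 2.18 and 2.12 log2 CPM in WT libraries 468-4, 685-2, 697-1 and 697-3, and -1.23, -0.55 and -0.35 in Sp3-/- libraries 685-1, 697-2 and 697-5. The groups did not overlap, the lowest WT library lying well above the highest Sp3-/- library. These levels rested on 55 to 145 reads in WT and 7 to 28 reads in Sp3-/- libraries. The log2 fold change was -2.82 ± 0.33 (SE, adjusted p = 0.0076, edgeR), a 7.05-fold lower level. With the suffix as a covariate over all 11 libraries it was -2.63 (adjusted p = 0.0049, edgeR). The Sp3-/- library 685-1 had about as much summed macrophage marker CPM (3609) as WT 468-4 (3813) and Sp3+/- 697-4 (3545), none of the 3 having a suffix. Wnt16 was at -1.23 in the first and at 1.61 and 2.05 log2 CPM in the other two. These libraries were not alike in other markers. Library 685-1 had 5003 CPM of smooth muscle markers against 13210 and 21180, and 5956 CPM of mesothelial markers against 1731 and 1769. Nor were they alike in each macrophage gene. Cx3cr1 was at 12.29 to 26.18 CPM in Sp3-/-, 1.382 to 4.581 in WT and 1.291 to 6.267 in Sp3+/- libraries. Ranges of Lyz2 overlapped, at 2067 to 8039, 398.3 to 2166 and 243.4 to 2201 CPM. The part of any of these cell types in the Wnt16 and Wnt5a differences was not tested.

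Wnt5a, the most abundant member in WT cells and a regulator of distal lung growth, was lower too. Its levels were 7.31, 7.43, 7.67 and 7.89 log2 CPM in WT libraries 468-4, 685-2, 697-1 and 697-3, and 6.72, 6.67 and 6.39 in the Sp3-/- libraries. Every Sp3-/- value fell below every WT value. The log2 fold change was -0.99 ± 0.16 (SE, adjusted p = 0.0134, edgeR), or 1.98-fold lower, and it was -0.68 (adjusted p = 0.0304, edgeR) with the suffix covariate. Without Sp3-/- library 697-2 the change was -1.03 and missed the threshold (adjusted p = 0.0558, edgeR). In the same 3 libraries Wnt5a stood at 6.72 in Sp3-/- 685-1 and at 7.31 in both WT 468-4 and Sp3+/- 697-4. These were alike in the macrophage marker sum, but not in each macrophage gene, nor in smooth muscle or mesothelial markers.

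Wnt4, a ligand known for its need in kidney tubule formation, was higher. It measured 1.80, 2.14, 0.98 and 2.20 log2 CPM in the WT libraries and 3.53, 4.07 and 3.34 in the Sp3-/- libraries. Groups were separate, and WT 697-1 was the lowest library. The log2 fold change was 1.86 ± 0.33 (SE, adjusted p = 0.0153, edgeR), or 3.63-fold, and 1.83 (adjusted p = 0.0351, edgeR) once suffix was a covariate. The call was lost when Sp3-/- 697-2 was omitted (1.60, adjusted p = 0.0650, edgeR). Mesothelial markers were also higher in Sp3-/- cells, with 4 of the 7 tested called higher and none lower, or 1 of 7 with the suffix covariate. Against Sp3+/- cells 2 of 7 were called higher. Among the Sp3-carrying libraries, Sp3+/- 685-5 had the most of both (2520 CPM of mesothelial markers and 2.71 log2 CPM of Wnt4), and WT 697-1, lowest in Wnt4, had 794.6 CPM. WT 697-3, lowest in mesothelial markers (742.6 CPM), had 2.20 log2 CPM of Wnt4. The part of mesothelial cells in the Wnt4 difference was not tested.

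Wnt2, a canonical ligand of fetal lung mesenchyme, measured 2.25, 1.43, 0.61 and 1.28 log2 CPM in the WT libraries. It measured 3.06, 2.7 and 4.49 in the Sp3-/- libraries 685-1, 697-2 and 697-5, so the groups did not overlap although the Sp3-/- libraries were spread. The log2 fold change was 2.12 ± 0.53 (SE, adjusted p = 0.0355, edgeR), or 4.35-fold. The call was lost with the suffix covariate (1.21, adjusted p = 0.198, edgeR), under limma-voom (1.68, adjusted p = 0.0526), and when any of WT 685-2, 697-1 and 697-3 or Sp3-/- 697-2 and 697-5 was left out (1.40 to 2.43, adjusted p = 0.0657 to 0.0966, edgeR). The Sp3-carrying libraries highest in Wnt2 were Sp3+/- 697-4 (3.07) and WT 468-4 (2.25), which were also the highest of them in macrophage markers and the only ones without a suffix. Sp3-/- 685-1, alike to them in the macrophage marker sum but not in each macrophage gene, had 3.06. The part of macrophage content in the Wnt2 difference was not tested.

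Wnt11, a non-canonical ligand, showed a smaller difference. Its levels were 3.77, 3.56, 3.35 and 3.88 log2 CPM in the WT libraries and 4.37, 4.15 and 4.32 in the Sp3-/- libraries. The groups did not overlap. The log2 fold change was 0.64 ± 0.15 (SE, adjusted p = 0.0297, edgeR), or 1.56-fold. With the suffix covariate it was 0.24 (adjusted p = 0.558, edgeR), and with WT 685-2, WT 697-1 or any Sp3-/- library omitted the adjusted p was between 0.0646 and 0.0845 (edgeR). In a fit of all 11 libraries it was 0.63 (adjusted p = 0.0820, edgeR). Sp3+/- 697-4, also without a suffix, had the highest value of all 11 libraries (4.39).

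**Figure D2:**
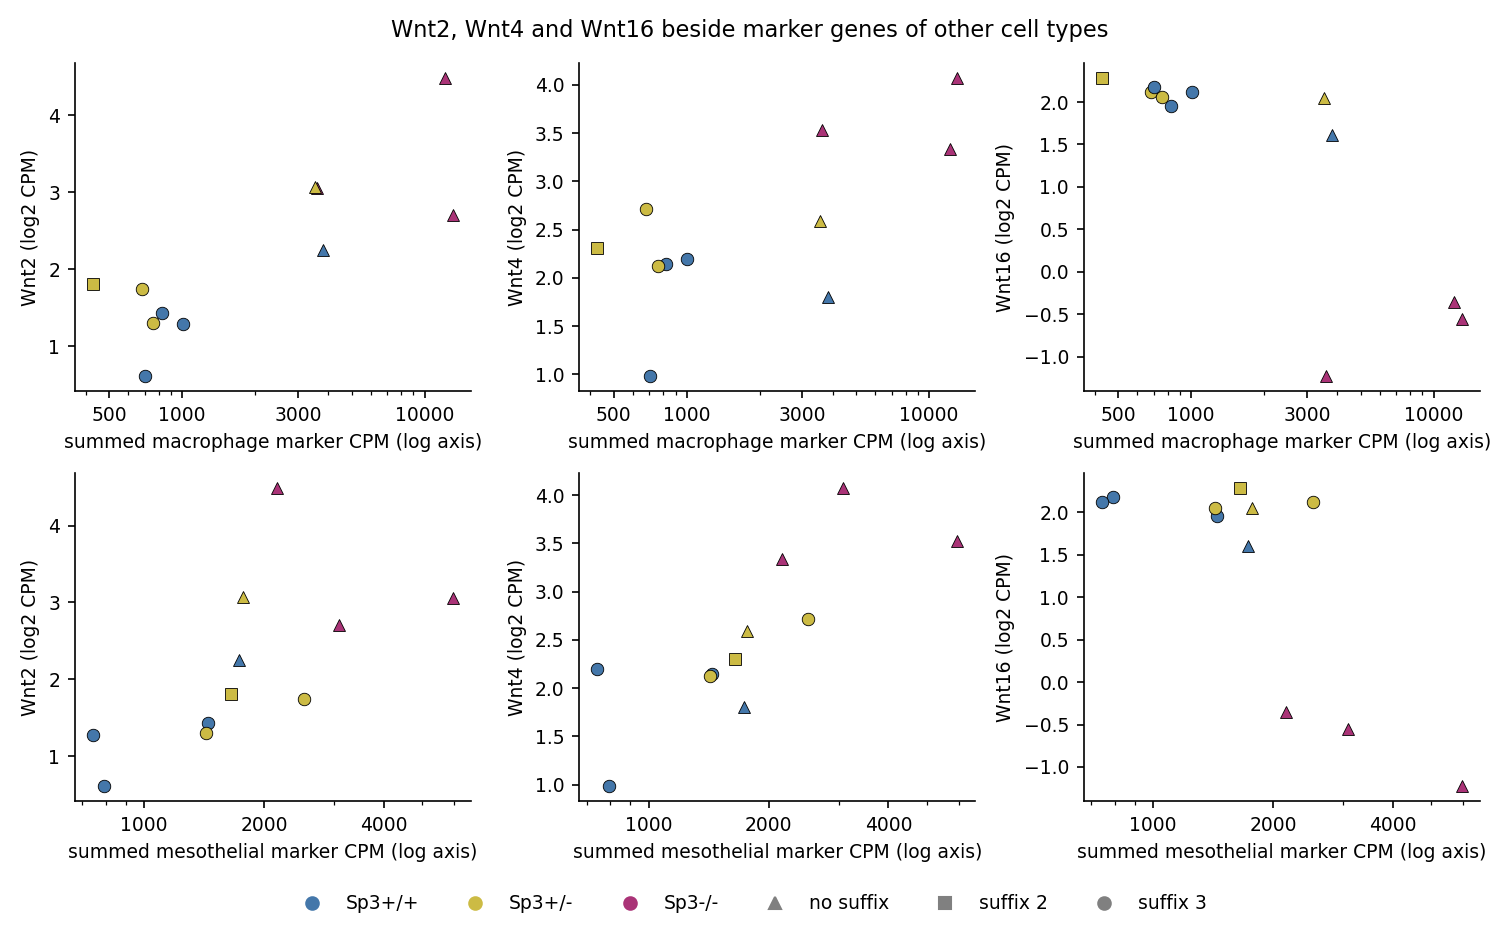
Levels of Wnt2, Wnt4 and Wnt16 (log2 CPM, vertical axes) against the summed CPM of 12 macrophage markers (upper row) and 7 mesothelial markers (lower row, both on log axes), each point a library coloured by genotype and shaped by title suffix. Sp3-/- 685-1, WT 468-4 and Sp3+/- 697-4 lie between 3545 and 3813 summed CPM of macrophage markers, though not alike in each marker. In that order Wnt16 is at -1.23, 1.61 and 2.05 and Wnt2 at 3.06, 2.25 and 3.07 in these libraries. The part of these markers in the differences was not tested.

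For 3 ligands no difference between WT and Sp3-/- cells was called. Wnt9a was at 5.34 to 5.53 log2 CPM in WT libraries, a narrow range, and at 6.69, 6.2 and 5.38 in Sp3-/- libraries 685-1, 697-2 and 697-5. The log2 fold change was 0.78 (95% interval 0.17 to 1.39, adjusted p = 0.0735, edgeR), and without Sp3-/- 697-5, whose value lay within the WT range, it was 1.05 (adjusted p = 0.0177, edgeR). DESeq2 called it as well (0.79, adjusted p = 0.0240). Wnt2b measured 2.60, 3.22, 3.03 and 3.66 in WT and 2.54, 2.43 and 2.64 in Sp3-/- libraries. Only WT 468-4 reached into the Sp3-/- range, and the log2 fold change was -0.64 (95% interval -1.25 to -0.04, adjusted p = 0.113, edgeR), or -0.80 (adjusted p = 0.0302, edgeR) without that library. Wnt5b, a close relative of Wnt5a, ranged from 0.71 to 2.12 in WT and from 0.76 to 1.21 in Sp3-/- libraries, with a log2 fold change of -0.52 (95% interval -1.37 to 0.33, adjusted p = 0.338, edgeR).

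Against Sp3+/- cells, Sp3-/- cells had 1 ligand called higher (Wnt4) and 3 called lower (Wnt2b, Wnt5a and Wnt16), in a fit of all 11 libraries. Of 14130 genes tested, 25.5% were called, 13% as higher and 12.5% as lower. This comparison uses the same Sp3-/- libraries as the one above, so the values stand side by side and are not independent. Of all genes called in it, 51.0% were higher, or 39.8% under upper quartile scaling. Wnt16 measured 2.28, 2.12, 2.05 and 2.05 log2 CPM in Sp3+/- libraries 468-3, 685-5, 685-7 and 697-4, a tight group far above the Sp3-/- libraries, and the log2 fold change was -2.98 ± 0.27 (SE, adjusted p = 0.000531, edgeR). Wnt5a, at 7.46, 7.76, 7.79 and 7.31 in the Sp3+/- libraries, gave -0.99 ± 0.17 (SE, adjusted p = 0.0043, edgeR). Wnt2b was at 3.68, 3.57, 3.39 and 3.66, above all Sp3-/- libraries, and gave -1.05 ± 0.22 (SE, adjusted p = 0.0096, edgeR). For Wnt4, at 2.31, 2.71, 2.12 and 2.59, the log2 fold change was 1.24 ± 0.29 (SE, adjusted p = 0.0143, edgeR). The suffix covariate ended the calls of Wnt2b (-0.85, adjusted p = 0.0964, edgeR) and Wnt4 (1.18, adjusted p = 0.122, edgeR), and without Sp3-/- 697-2 Wnt4 was at 0.99 (adjusted p = 0.0701, edgeR).

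Wnt2 and Wnt11 were not called against Sp3+/- cells, and in both Sp3+/- 697-4 lay within or above the Sp3-/- range. Wnt2 measured 1.81, 1.75, 1.31 and 3.07 log2 CPM in the Sp3+/- libraries and changed by 1.49 ± 0.55 (log2, SE, adjusted p = 0.0706, edgeR). Without 697-4 the change was 2.00 (adjusted p = 0.0225, edgeR). Wnt11 measured 3.31, 3.73, 3.27 and 4.39 and changed by 0.54 ± 0.25 (log2, SE, adjusted p = 0.138, edgeR), or by 0.83 without 697-4 (adjusted p = 0.0101, edgeR). Wnt9a and Wnt5b had log2 fold changes of 0.43 (adjusted p = 0.238, edgeR) and -0.42 (adjusted p = 0.419, edgeR).

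Between Sp3+/- and WT cells no ligand was called by edgeR, and none of the 14130 genes tested was (0%). An unadjusted p below 0.05 was found for 246 genes (1.74%), of which none was a ligand. DESeq2 and limma-voom also called 0 genes, with 281 and 303 at an unadjusted p below 0.05. The largest log2 fold changes of ligands were 0.63 for Wnt2 (95% interval -0.53 to 1.79), 0.61 for Wnt4 (-0.0036 to 1.22) and 0.40 for Wnt2b (-0.03 to 0.84), and Wnt5a had 0.0017 (-0.33 to 0.33). Wnt16 had 0.15 (-0.32 to 0.61), Wnt11 0.09 (-0.43 to 0.62), Wnt5b -0.10 (-0.83 to 0.64) and Wnt9a 0.35 (-0.18 to 0.88). Wnt9a was at 5.56 to 6.2 log2 CPM in Sp3+/- and 5.34 to 5.53 in WT libraries, and it was not called. How many of all genes separate these groups in this way was not counted, so the ranges are descriptions only.

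**Figure D3:**
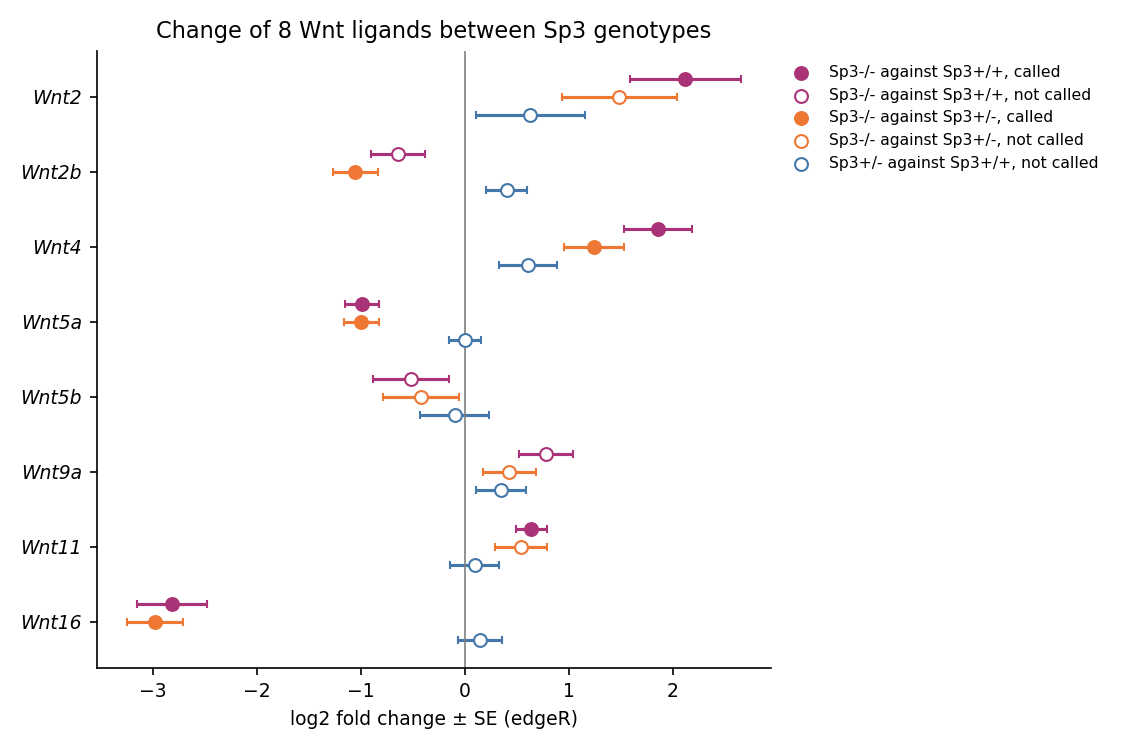
Log2 fold change ± SE (horizontal axis) of the 8 tested ligands in the 3 comparisons of genotypes by edgeR; filled points have an adjusted p below 0.05. Wnt16 lies farthest from 0, at -2.82 against WT and -2.98 against Sp3+/-, whereas all Sp3+/- against WT points are open.

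The make-up of the ligand transcripts differed more than their sum. Summed over all 19 Wnt genes, CPM per kilobase was 37.8 to 49.7 in WT, 43.7 to 55.7 in Sp3+/- and 32.7 to 49.2 in Sp3-/- libraries, and the 3 ranges overlapped. Wnt5a made up 50.1% to 59.4% of this sum in WT, 45.3% to 57.2% in Sp3+/- and 26.6% to 31.9% in Sp3-/- libraries. Wnt9a took 22.5% to 27.5% in WT, 25.5% to 33.7% in Sp3+/- and 32.5% to 53.6% in Sp3-/- libraries. In each of the 3 Sp3-/- libraries Wnt9a was above Wnt5a, and in every WT and Sp3+/- library it was below. In Sp3-/- 697-5 the shares were close, at 32.55% for Wnt9a and 31.9% for Wnt5a, and their order rests on the exon lengths used. The share of Wnt4 was 0.88% to 2.02% in WT and 4.62% to 8.02% in Sp3-/- libraries, that of Wnt11 was 4.65% to 7.11% and 8.29% to 12.1%, and that of Wnt16 was 1.81% to 2.38% and 0.17% to 0.50%. Shares add to a whole, so a fall in Wnt5a alone raises the others, and they were not tested.

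**Figure D4:**
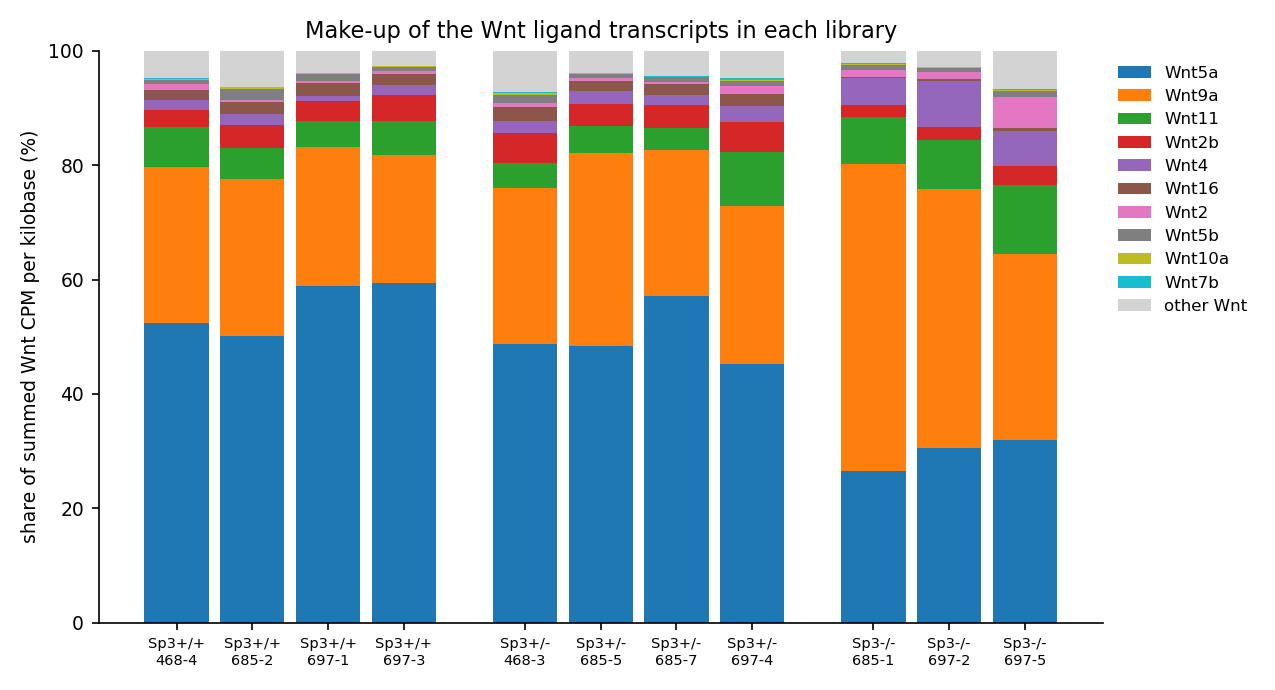
Share of each ligand (vertical axis, %) in the summed CPM per kilobase of 19 Wnt genes in each of the 11 libraries, grouped by genotype, with the 9 genes that are not described here in grey. Wnt5a fills 26.6% to 31.9% of the bar in Sp3-/- libraries and at least 45.3% in all others.

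The other 9 Wnt genes were Wnt1, Wnt3, Wnt3a, Wnt6, Wnt7a, Wnt8a, Wnt8b, Wnt9b and Wnt10b, and only Wnt10b passed the filter. Wnt10b, a canonical ligand that restrains fat cell formation, was at 1.69 ± 0.55 CPM per kilobase in WT cells (SD, n = 4), close to Wnt2b. Its level was 2.59 to 3.66 log2 CPM in WT, 3.17 to 3.99 in Sp3+/- and 2.08 to 3.29 in Sp3-/- libraries. The groups overlapped, and the log2 fold change in Sp3-/- against WT cells was -0.46 ± 0.37 (SE, adjusted p = 0.397, edgeR).

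Genes that release, receive and transmit Wnt signals were counted by role in the same comparison of Sp3-/- with WT cells. Over all 14025 genes tested in it, 8.76% were called higher and 9.77% lower, and no list was tested as a set. All 8 genes of ligand secretion were tested and none was called, including Porcn, which attaches the lipid (-0.61, adjusted p = 0.0615, edgeR), and Wls, which carries ligands to the cell surface (-0.03, adjusted p = 0.826, edgeR). Of 9 tested Frizzled receptors, 1 was lower, Fzd7 (-0.48, adjusted p = 0.0340, edgeR), and none was higher. Of 9 co-receptors 3 were lower and none higher. These were Ror2 (-2.95, adjusted p = 0.0150, edgeR) and Ror1 (-1.73, adjusted p = 0.0453, edgeR), the receptor kinases for Wnt5a, and Gpr124 (-1.45, adjusted p = 0.0265, edgeR), a co-receptor for Wnt7 ligands. The median log2 fold change was 0.14 for secretion genes, -0.40 for Frizzled receptors and -0.52 for co-receptors. With the suffix covariate these medians were 0.0014, 0.0189 and -0.39, so that the sign for Frizzled receptors turned. In that fit 1 co-receptor was called lower (Ror2) and 1 higher, Lrp6 (0.54, adjusted p = 0.0272, edgeR), which is named after its value was seen.

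Of 8 tested genes of the R-spondin axis, which raises Frizzled levels at the cell surface, only Rspo2 was called, at -4.22 (adjusted p = 0.0089, edgeR), an 18.6-fold lower level. Of 8 tested secreted antagonists only Frzb was called, also lower (-2.17, adjusted p = 0.0153, edgeR). Among 14 genes that transmit the signal through β-catenin, Ctnnb1, which encodes β-catenin, was higher (0.46, adjusted p = 0.0488, edgeR) and the repressor Tcf7l1 was lower (-0.93, adjusted p = 0.0378, edgeR). Of 8 tested β-catenin targets, Axin2, a feedback inhibitor widely used as a readout of the canonical pathway, was higher (3.30 ± 0.32, adjusted p = 0.0061, edgeR) and Myc was lower (-0.64, adjusted p = 0.0317, edgeR). Lef1, Tcf7, Nkd1, Nkd2, Apcdd1 and Ccnd1 were not called. Of 15 non-canonical effectors, Camk2d and Nfatc4 were lower (both -0.50, adjusted p = 0.0404 and 0.0491, edgeR) and none was higher.

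Axin2 was at 1.31, 1.57, 0.92 and 0.63 log2 CPM in WT libraries, at 1.90, 2.39, 1.78 and 2.17 in Sp3+/- libraries 468-3, 685-5, 685-7 and 697-4, and at 4.28, 3.86 and 4.88 in Sp3-/- libraries. The 3 genotypes did not overlap, with the Sp3+/- libraries between the others. How many of all genes separate the 3 genotypes in this way was not counted, so the order is a description only. The difference between Sp3+/- and WT was 0.97 (95% interval 0.36 to 1.57) and was not called after adjustment (adjusted p = 0.9999, edgeR). The suffix covariate kept the calls of Axin2 (3.18, adjusted p = 0.0070, edgeR), Rspo2 (-2.94, adjusted p = 0.0144, edgeR), Ror2 (-1.60, adjusted p = 0.0183, edgeR) and Myc (-0.98, adjusted p = 0.0103, edgeR). It ended the calls of Fzd7, Ror1, Gpr124, Frzb, Ctnnb1, Tcf7l1, Camk2d and Nfatc4 (adjusted p = 0.0608 to 0.421, edgeR). Against Sp3+/- cells, the same roles gave 5 lower co-receptors of 9, 1 lower gene each among Frizzled receptors, the R-spondin axis and antagonists, and none called among the secretion genes. Genes of β-catenin transduction gave 1 higher and 2 lower of 14, and non-canonical effectors 1 higher and 3 lower of 15. Over all 14130 genes tested in that comparison, 13% were called higher and 12.5% lower. With the suffix covariate 1 co-receptor was higher and 1 lower, and none was called among Frizzled receptors, the R-spondin axis, antagonists, β-catenin transduction and non-canonical effectors. Of the 8 targets tested against Sp3+/- cells, only Axin2 was called without the covariate (2.32, adjusted p = 0.0013, edgeR). With the covariate 1 target was called higher and 1 lower. Between Sp3+/- and WT cells no gene of any role was called.

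**Figure D5:**
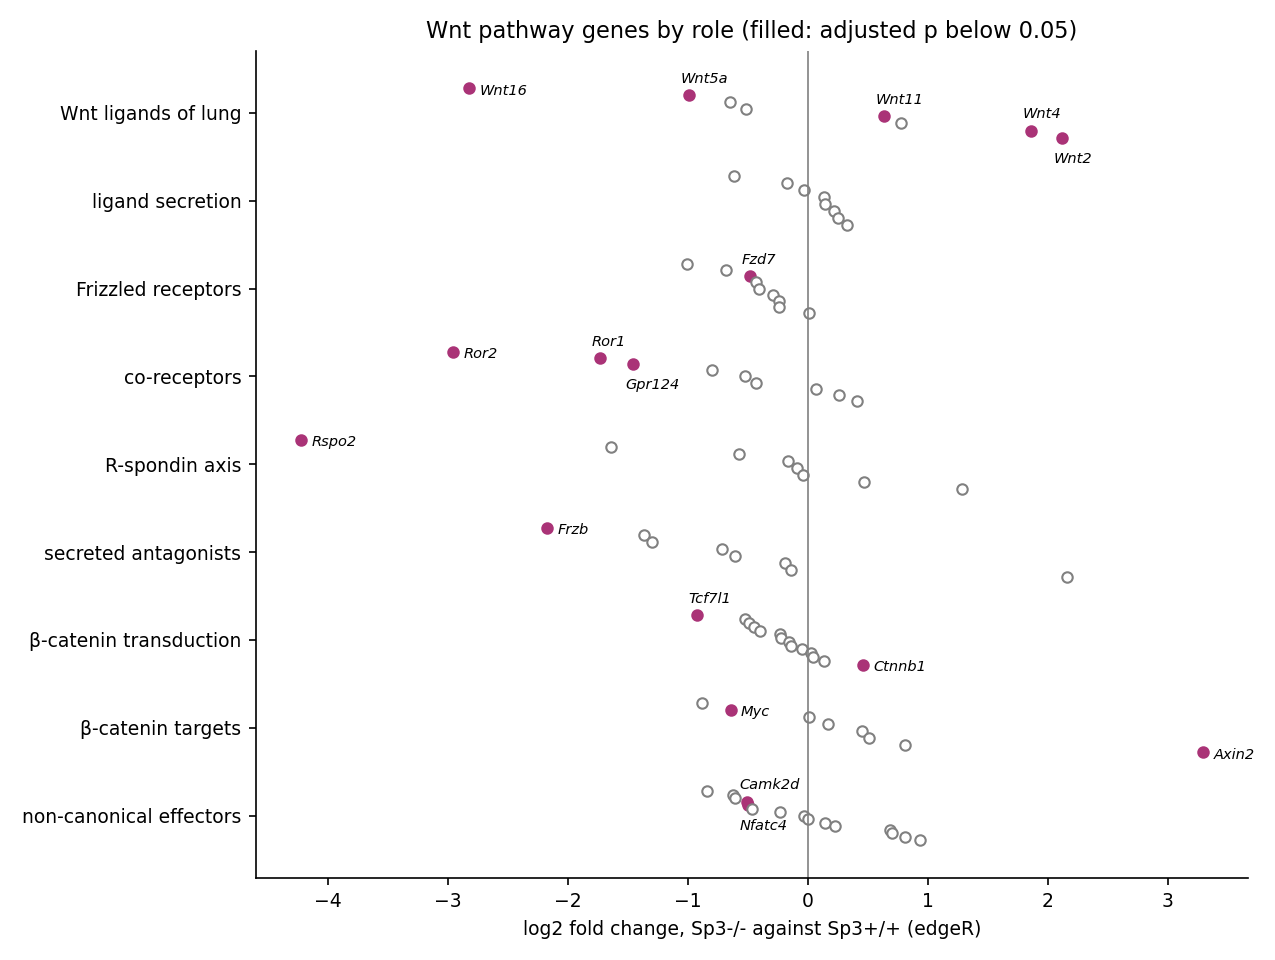
Log2 fold change of Sp3-/- against WT cells (horizontal axis, edgeR) for the tested genes of each Wnt pathway role; each point is a gene, and filled, named points have an adjusted p below 0.05. Of the named points outside the ligands, 10 lie below 0, and Ctnnb1 (0.46) and Axin2 (3.30) lie above it. Over all 14025 genes tested, 8.76% were called higher and 9.77% lower, and no role was tested as a set.

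Genes whose level followed each ligand most closely over the 11 libraries were found by Pearson's r on log2 CPM. They were picked as the highest of all tested genes, the libraries share genotype and suffix, and the values are descriptions only. The pattern of Wnt2 was most like those of Itgb4 (r = 0.99), Mul1 (0.97) and Xirp2 (0.97). Wnt16 was followed by Chst7 (0.99), Stox2 (0.98) and Bcat1 (0.98), and over the 8 Sp3-carrying libraries alone the r of these was 0.43, 0.60 and 0.63. Wnt5a was followed by Ext1 (0.98), Tars (0.98) and Slc1a6 (0.98), which kept 0.88 to 0.89 over those 8 libraries. For Wnt4 the closest were Actr8 (0.96), Gata5 (0.94) and Vill (0.94), with 0.81 to 0.94 over the 8 libraries.

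Closest to Wnt2b were Aldh4a1 (r = 0.97), Dpp6 (0.96) and Rtn2 (0.95). Those of Wnt11 were Pex14 (0.94), Xrcc4 (0.94) and Tmem199 (0.93), those of Wnt9a were Ppp1r3d (0.96), B4galt4 (0.96) and Syne2 (0.96), and those of Wnt5b were Sgsm2 (0.96), Enkd1 (0.96) and Zfp3 (0.95). By Spearman's rho, Itgb4 remained the closest to Wnt2 (0.99), Gata5 was the closest to Wnt4 (0.96) and Aldh4a1 ranked 2 for Wnt2b. Chst7, Stox2 and Bcat1 fell to ranks 1367, 860 and 1903 for Wnt16.

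On GRCm38.p6 the ligands lie on 8 chromosomes, with Wnt2 (chr6:17985474-18032772), Wnt16 (chr6:22288178-22298522) and Wnt5b (chr6:119432531-119544824) on chromosome 6. Wnt5a lies at chr14:28504543-28527448, Wnt4 at chr4:137277635-137299501, Wnt11 at chr7:98835084-98854747 and Wnt9a at chr11:59306849-59333552. Wnt2b lies at chr3:104944805-104961709, Wnt7b at chr15:85535437-85581821 and Wnt10a at chr1:74792019-74804176. The span of Wnt2b meets that of St7l, the span of Wnt5b that of Fbxl14 and the span of Wnt7b that of AU022754. These neighbours were counted as well. The strand setting of the counting is not given in the sources used here. Whether reads on shared stretches were given to a gene or left out is therefore not known.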

How the data were processed

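The authors sequenced TruSeq libraries of RNA with a RIN above 7, checked reads with FastQC 0.10.1, aligned them to mm10 with STAR 2.4.5a and counted reads per gene with htseq-count. The deposited files hold raw, whole-number counts per gene symbol for each library and 5 tallies outside genes, which made up 38.4% to 40.9% of each total and were left out. Annotation and strand setting are not given in the sources used here. Counts were compared with edgeR 4.0.16 (quasi-likelihood test, TMM) in R 4.3.3, for genes above 1 CPM in at least 1 library of a fit, with Benjamini-Hochberg adjustment over all of them. WT and Sp3-/- libraries alone entered their comparison, and all 11 the others. Fits with the suffix covariate used all 11 libraries throughout. For Sp3-/- against WT they therefore changed the libraries fitted as well as the model. DESeq2 1.42.0, limma 3.58.1 (voom, also with consensus correlation within the first title number), other scalings and filters, suffix and title number terms, subsets and single omissions were alternatives. No 2 libraries of a genotype agreed within sampling noise. The fits were tested on simulated data. Intervals (95%) use the t distribution with the residual degrees of freedom of each gene in edgeR, and the number of libraries limits precision. Promoters, coordinates (RefSeq, GRCm38.p6) and exon lengths (GENCODE vM39) were read with Python 3.11.15. Adgra2 and Adgre1 were matched as Gpr124 and Emr1, and the marker Muc16 was not matched. All 10 ligands are named, with Sp3, Axin2, other Wnt genes past the filter, at most 3 called genes of each pathway list by size of change, the 3 genes of highest r for each ligand, and genes named for a passage. Members and lists were chosen with earlier results of these data known.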

Additional observations from a re-analysis of the deposited data

Results flagged for a closer look

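Wnt9a in Sp3+/- library 685-5 lay far from the others of its group. It measured 6.198 log2 CPM (4347 reads), and the other 3 Sp3+/- libraries lay between 5.56 and 5.59, so that the gap to the nearest was 0.948 of the whole range (Dixon's critical value 0.829 for 4 libraries). The same library had the highest mesothelial marker sum of the Sp3-carrying libraries (2520 CPM), and the part of that in the value was not tested. Chance picks about 1 in 20 groups, and 24 groups were checked, those of the 10 ligands, Sp3 and Axin2 in WT and Sp3+/- libraries.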

How the results depend on the processing

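The count of ligands higher in Sp3-/- than in WT cells (3) was 1 with the title suffix as a covariate and 0 among libraries without a suffix (1 WT against 3 Sp3-/-, the lone library assumed to vary like the rest), where the count of lower ligands (2) was 0 as well. With each library left out the counts were 0 to 3 higher (0 without Sp3-/- 697-2, 1 without WT 685-2 or 697-1) and 1 to 3 lower (1 without Sp3-/- 697-2). Against Sp3+/- cells the count of higher ligands (1) was 2 with DESeq2 and 0 with the suffix covariate or among libraries without a suffix, and 0 to 3 with single libraries left out (0 without Sp3-/- 697-2, 2 without Sp3-/- 697-5, 3 without Sp3+/- 697-4). Lower ligands (3) were 0 among libraries without a suffix. Fits among libraries without a suffix called no gene at all, so they say nothing about stability. The cause of these changes was not tested. Over all genes, the 2599 calls of Sp3-/- against WT became 4297 with DESeq2, 4031 with the first title number as a block, 1329 with the suffix covariate and 0 among libraries without a suffix (1359 at an unadjusted p below 0.05). The suffix covariate entered a fit of all 11 libraries, which called 3977 genes without it. The 2599 calls became 282 without Sp3-/- 697-2 and 1408 without 697-5. They became 766 to 893 without WT 685-2, 697-1 or 697-3, and 4179 without WT 468-4. The 3607 calls against Sp3+/- became 763 with the suffix covariate, 0 among libraries without a suffix (1386 unadjusted), 1490 without Sp3-/- 697-2, and 1887 to 2314 without Sp3+/- 468-3, 685-5 or 685-7. Wnt2b was called lower against WT in a fit of all 11 libraries (adjusted p = 0.0480, edgeR) and with the first title number as a block (adjusted p = 0.0440), and Wnt9a was called higher in the former (adjusted p = 0.0454).

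Only uncalled differences changed sign. In Sp3-/- against WT cells, Wnt5b was 0.0319 with the suffix covariate and 0.29 among libraries without a suffix. Against Sp3+/- cells, Wnt5b was 0.30 and 0.0277 in those fits and Wnt11 was -0.12 in the latter. Between Sp3+/- and WT cells, Wnt5a was -0.0079 by limma-voom and -0.0072 with the consensus correlation, -0.0197 with the first title number as a block, and -0.0707 to 0.12 with single libraries left out. Wnt11 was -0.0299 and -0.0322 by the same fits, -0.0828 among libraries of suffix 3 and -0.20 to 0.23 with libraries left out. Wnt5b was 0.27 among libraries without a suffix and -0.35 to 0.17 with libraries left out. Wnt16 was called whichever single library was omitted, against WT (-2.96 to -2.56) and against Sp3+/- (-3.12 to -2.71). No paired analysis was possible because no label ties single libraries of different genotypes into pairs. The first title number, which several libraries of a genotype can share, was fitted as a block in its place, with 3 ligands higher and 3 lower against WT and 1 higher and 3 lower against Sp3+/-.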
